A study of Homo sapiens with 4 samples.

Results

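The genes described here are 47 factors of pre-mRNA splicing, sorted by role into serine/arginine-rich (SR) and SR-related proteins, the CLK kinases that phosphorylate them, heterogeneous nuclear ribonucleoproteins (hnRNPs), the Sm core with the proteins of the U1 particle, and a group of U2, U2AF and U5 proteins. They were chosen by symbol, and a probe set of the array counted for a gene only when its annotation named that gene alone. This gave 104 probe sets for 46 of the 47 genes, out of 11963 genes represented in this way. SRSF2 was left without one, because its 3 probe sets are annotated to a microRNA gene as well. The 46 genes were 10 SR proteins, 4 CLK kinases, 14 hnRNPs, 10 Sm and U1 proteins and 8 U2, U2AF and U5 proteins.

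The RNA came from BJ-TE cells, an established line made from human BJ fibroblasts of foreskin. Cultures at 100% or 40% confluence carried short hairpin RNA (shRNA), either aimed at p73, a transcription factor of the p53 family, or the control that the labels call ns. The 4 groups were thus p73 shRNA at 100%, ns shRNA at 100%, p73 shRNA at 40% and ns shRNA at 40% confluence, with 1 Affymetrix array each and no replicate within a group. The labels do not say which sequence of p73 was targeted or how many hairpins were used, and all 4 groups are the same line with a hairpin. The series title concerns p73 and malignant transformation. The comparisons ask which genes differ when p73 is targeted and which differ between sparse and confluent cells.

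Splicing removes introns in steps. The U1 particle pairs with the start of the intron, U2AF and the U2 particle mark its end and its branch point, and the U5 protein PRPF8 sits at the catalytic centre. SR proteins bind exons and mostly favour their inclusion, hnRNPs often oppose it, and CLK kinases phosphorylate the serine/arginine repeats of SR proteins and so release them from nuclear speckles. Transcripts of many SR and hnRNP genes are themselves alternatively spliced, and a probe set reports only the stretch of transcript it was designed for.

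TP73, the targeted gene, has 1 probe set, at 2.04 with p73 shRNA and 1.65 with ns shRNA at 100% and at 2.09 and 1.68 at 40%, all far below the brightness filter, so the knockdown cannot be read from these arrays. Arrays were already scaled: after trimming 2% at either end, mean intensity was 500 on each. Median intensity was 120 (p73 shRNA) and 122 (ns shRNA) at 100% confluence and 105 and 106 at 40%. The bright end, read at the 99th percentile, was highest on the p73 shRNA array at 40%, at 13157 against 10196 to 11420 elsewhere. For beta-actin the signal at the 3' end over that at the 5' end, which reads how intact the RNA was, came to 1.38 (p73 shRNA) and 1.47 (ns shRNA) at 100% and to 1.09 and 1.24 at 40%, so it moved with confluence. For GAPDH it was 1.02 on both arrays at 100%, and 0.979 (p73 shRNA) and 0.935 (ns shRNA) at 40%, a smaller difference in the same direction. Of 16 fibroblast markers 15 lay above the brightness filter, against 1 of 7 epithelial markers (KRT18), 0 of 5 endothelial, 0 of 4 blood and 0 of 3 melanocyte markers on the array.

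Values are given as intensity and as log2 ratios of intensity + 11.6. Each gene was read from the brightest of the probe sets annotated to it alone. For HNRNPA1, HNRNPA3 and PTBP1, probe sets shared with other genes were brighter and were not used. All 46 genes passed the brightness filter, which 6759 of the 11963 genes did. An additive limma model over the 4 arrays tested each factor with the other held in the model. Rose and fell below mean a Benjamini-Hochberg adjusted p under 0.05 over all 6759 genes. The model has 1 residual degree of freedom. A p-value here therefore does not measure a spread among replicates. Whether the 4 cultures were set up independently is not in the labels, so the spread among these arrays may be technical.

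With p73 shRNA, 1 of the 46 splicing factors changed: SRSF11 fell. Of all genes tested, 2.72% were called in this comparison, 1.14% risen and 1.58% fallen, so 1 of 46 (2.17%) is close to the background. Without the intensity trend the call stood, while 1.09% of all genes were called, 0.385% risen and 0.71% fallen. The median log2 change was 0.01 over the splicing factors and -0.00 over all genes, and the median size of change regardless of sign was 0.10 and 0.15. At an unadjusted p under 0.05 there were 5 of the 46 (10.9%), against 13.6% of all genes. Of the 46, 15 were higher at both stages and 13 lower at both, where 1963 and 1988 of all 6759 genes were. Ratios of opposite sign were found in 18 of the 46 (39.1%), against 41.5% of all genes. Tested one by one, 1 of the 95 probe sets above the filter rose (of SNRPA1) and 1 fell (of SRSF11), where 0.934% of all probe sets rose and 1.39% fell, 2.32% in all.

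SRSF11, an SR-related protein that binds U2AF, had an intensity of 3272 with p73 shRNA and 5801 with ns shRNA at 100% confluence. At 40% it had 2097 with p73 shRNA and 5032 with ns shRNA. Both p73 shRNA arrays were below both ns shRNA arrays. The log2 ratio was -0.82 at 100% and -1.26 at 40%, an average of -1.04 (SE 0.14, limma adjusted p 1.68e-10), or 2.06-fold lower. Without the intensity trend in the moderation the limma adjusted p was 0.00737. The call was lost when dim probe sets were not filtered out (limma adjusted p 0.0567) and when confluence was left out of the model (limma adjusted p 1).

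SRSF11 has 3 probe sets, all above the filter, and each read lower with p73 shRNA at both stages. Probe set 213742_at had 809 with p73 shRNA and 1235 with ns shRNA at 100%, and 428 and 552 at 40%. Probe set 200685_at had 470 and 571 at 100%, and 169 and 291 at 40%. Their average log2 changes were -0.48 and -0.51, and neither was called when probe sets were tested one by one (limma adjusted p 0.116 and 0.197). The mean of the 3 fell by 0.68 on the log2 scale (limma adjusted p 0.0377). In bulk RNA a lower level in each cell and a smaller share of cells that express the gene cannot be told apart.

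The promoter windows of SRSF11 are shown because it is the single splicing factor that changed with the p73 hairpin. RefSeq gives it a pair of transcription starts, and the 250 bases before each lie on the plus strand of GRCh38.p14 at chr1:70221130-70221379 and chr1:70205446-70205695. Capitals would mark a match, on either strand, to 1 of 4 motifs. For the p53 family decamer (RRRCWWGYYY, with R for A or G, W for A or T and Y for C or T) a single copy counted. The others were the CCAAT box (CCAAT), the GC box (GGGCGG) and the ETS site (CCGGAAG). Neither window holds any of the 4 motifs.
SRSF11 first start: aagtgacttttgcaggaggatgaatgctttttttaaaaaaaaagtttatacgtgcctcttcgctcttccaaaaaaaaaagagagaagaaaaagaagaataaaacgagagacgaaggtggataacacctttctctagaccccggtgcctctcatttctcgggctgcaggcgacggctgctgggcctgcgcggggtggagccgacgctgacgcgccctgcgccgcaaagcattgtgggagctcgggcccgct
SRSF11 second start: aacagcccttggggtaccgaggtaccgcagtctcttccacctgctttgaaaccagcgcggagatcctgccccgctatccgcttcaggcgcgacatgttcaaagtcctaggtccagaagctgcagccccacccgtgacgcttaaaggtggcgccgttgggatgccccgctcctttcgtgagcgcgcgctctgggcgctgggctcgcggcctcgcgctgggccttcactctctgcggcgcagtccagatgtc

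Promoter windows were found for 42 of the 47 genes, 61 windows in all. The p53 family decamer was in 4 windows (6.56%, of SRSF4, CLK3, HNRNPC and U2AF2) against 5.57% of all 35116 windows in the RefSeq table. The 4 genes with it had average log2 changes with p73 shRNA between -0.03 and 0.10, and none was called. The CCAAT box was in 31.1% of the splicing factor windows and 32% of all windows, and the GC box in 52.5% and 42.6%. The ETS site was in 15 windows (24.6%) against 8.52% of all. A motif match is a run of letters, not a shown binding site, and overlapping windows of a gene were counted apart.

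**Figure D1:**
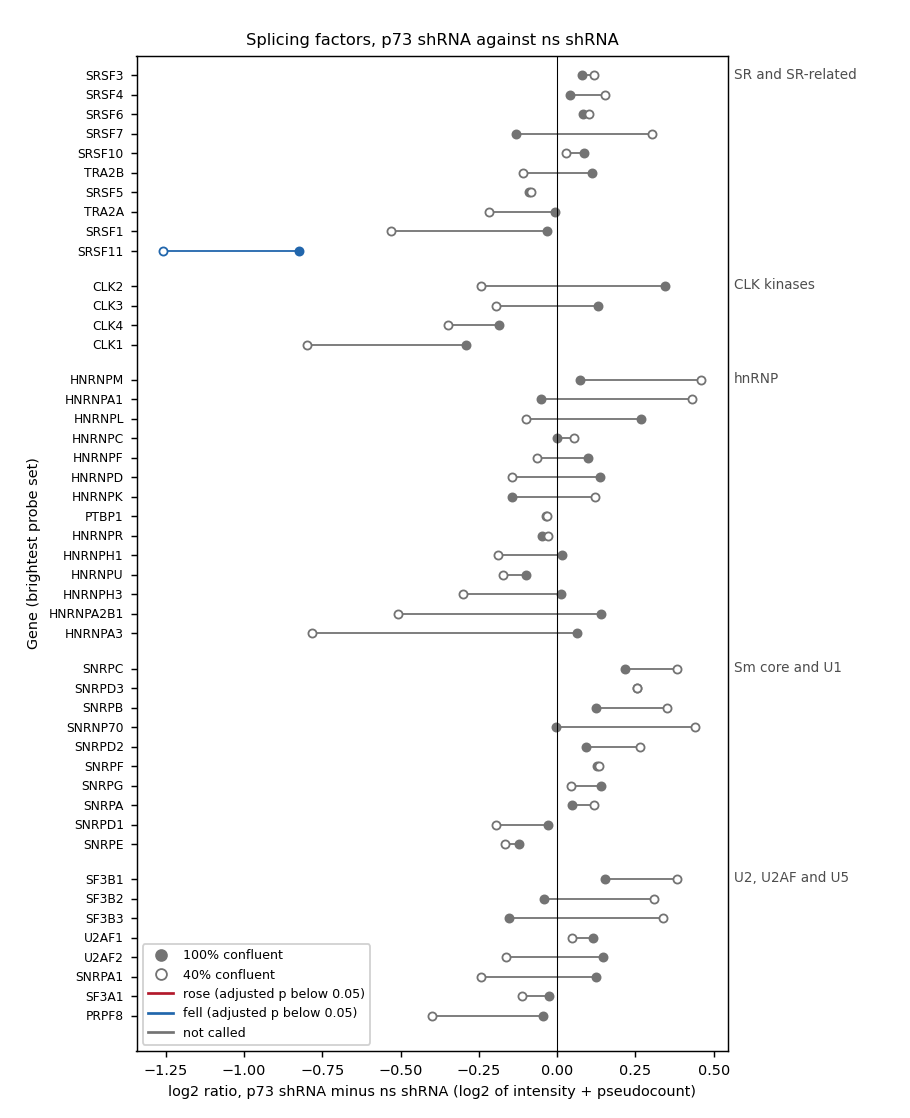
Log2 ratio of p73 shRNA to ns shRNA for the 46 splicing factors, filled points at 100% and open points at 40% confluence, grouped by role and ordered by the average of both ratios. SRSF11 lies apart at -0.82 and -1.26 and is the only gene drawn as fallen. No gene is drawn as risen.

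Among the other 9 SR proteins none passed the test with p73 shRNA. Their average changes lay between -0.28 and 0.10. SRSF1, the founding SR protein, had the lowest of these. Its intensity was 4874 with p73 shRNA and 4985 with ns shRNA at 100%, and 5499 and 7943 at 40%, and the ns shRNA array at 40% stood above the other 3 (average -0.28, limma adjusted p 0.338). TRA2A, a sequence-specific splicing activator with serine/arginine domains, averaged -0.11 (limma adjusted p 0.863).

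None of the 4 CLK kinases passed, and 1 had an unadjusted p under 0.05. CLK1 had 475 with p73 shRNA and 585 with ns shRNA at 100%, and 202 and 360 at 40%. It was lower with p73 shRNA at both stages, and its average of -0.55 (SE 0.20) did not pass the test (limma adjusted p 0.132). CLK4 was at 368 and 421 at 100% and at 257 and 330 at 40%, an average of -0.27 (limma adjusted p 0.648). CLK2 and CLK3 had opposite signs at the stages and averaged 0.05 and -0.03.

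No hnRNP passed: 0 of 14, with 1 at an unadjusted p under 0.05 and 0 of 14 called without the intensity trend. HNRNPA3, a relative of the exon-skipping factor HNRNPA1, had 2086 with p73 shRNA and 1998 with ns shRNA at 100%, and 1144 and 1978 at 40%. The p73 shRNA array at 40% alone was low, and the average was -0.36 (limma adjusted p 0.207). HNRNPM averaged 0.27 (limma adjusted p 0.384) and HNRNPA1 0.19 (limma adjusted p 0.632).

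Of the 10 Sm and U1 proteins 8 had a positive average with p73 shRNA and 7 were higher at both stages, but 0 passed and 1 had an unadjusted p under 0.05. Of all 6759 genes 3341 had a positive average and 1963 were higher at both stages. The median of the 10 was 0.15, and 0.12 after quantile normalization. SNRPC, the U1 protein that steadies the pairing of U1 with the intron's start, had 2041 with p73 shRNA and 1756 with ns shRNA at 100%, and 3035 and 2327 at 40% (average 0.30, limma adjusted p 0.339). The Sm proteins SNRPD3 and SNRPB, parts of the ring around each spliceosomal RNA, averaged 0.25 and 0.24. Their limma adjusted p was 0.42 and 0.459. The p73 shRNA array at 40% was also the array with the brightest top end, and the part of this in the ratios was not tested.

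The U2, U2AF and U5 group had 0 of 8 called and 0 at an unadjusted p under 0.05. SF3B1, the U2 protein that contacts the branch point, had the largest average, 0.27 (limma adjusted p 0.382). PRPF8 averaged -0.22 (limma adjusted p 0.54) and SF3B2, another subunit of that U2 complex, 0.13 (limma adjusted p 0.784). A wider list of other spliceosome and splicing genes had 90 members above the filter. With p73 shRNA 0 of the 90 passed, and 9 (10%) had an unadjusted p under 0.05, against 13.6% of all genes. Without the intensity trend 0 passed as well, and the list's median was 0.02.

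At 100% confluence, compared with 40%, 6 of the 46 splicing factors rose and 8 fell. The kinases CLK1 and CLK3, SRSF11, HNRNPA3, HNRNPL and SF3B1 were higher, and SRSF1, SRSF6, SRSF7, TRA2A, HNRNPD, PTBP1, SNRPC and U2AF1 were lower. Of all genes tested 36.6% were called, 20.4% risen and 16.1% fallen, against 30.4% of the splicing factors, so the share called was no higher than the background. The median change of the splicing factors was -0.12 and that of all genes 0.01, and the median size regardless of sign was 0.22 and 0.32. With both hairpins 12 of the 46 were higher and 25 lower, where 2650 and 2498 of all 6759 genes were. Opposite signs were found in 9 of the 46 (19.6%, against 23.8% of all genes).

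The split depends on the scaling. With each array centred on its median, 5 rose and 12 fell, against 6 and 8 as deposited, and after quantile normalization 5 rose and 7 fell. All genes shifted too: 17.6% rose and 19.4% fell with centred arrays, and 17.4% rose and 16.2% fell after quantile normalization. Without the intensity trend 2 rose (CLK1 and CLK3) and 4 fell (SRSF6, SRSF7, TRA2A and SNRPC), 13% of the 46, where 30.6% of all genes were called, 18.3% risen and 12.3% fallen. The beta-actin measure of RNA integrity moved with confluence, and that of GAPDH less, and their part in these changes was not tested.

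Of the 10 SR proteins 4 fell and 1 rose, where 16.1% of all genes fell and 20.4% rose. All 10 had the same sign with both hairpins, 8 lower and 2 higher. Of all 6759 genes 2498 were lower and 2650 higher with both hairpins. TRA2A had 645 at 100% and 1022 at 40% with p73 shRNA, and 648 and 1192 with ns shRNA. Both arrays of confluent cells were below both others, and the average was -0.76 (SE 0.17, limma adjusted p 5.57e-05). SRSF7, an SR protein with a zinc knuckle, had 4107 at 100% and 7348 at 40% with p73 shRNA, and 4502 and 5952 with ns shRNA (average -0.62, SE 0.14, limma adjusted p 6.52e-05). Averaged over all 4 of its probe sets, SRSF7 was at -0.29 and was not called (limma adjusted p 0.128). SRSF6 had 1510 and 2265 with p73 shRNA, and 1426 and 2112 with ns shRNA (average -0.57, SE 0.15, limma adjusted p 0.000914). The confluent arrays were the lower ones for SRSF6 and SRSF7 too, with either hairpin.

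SRSF1 had 4874 at 100% and 5499 at 40% with p73 shRNA, and 4985 and 7943 with ns shRNA. Its average was -0.42 (SE 0.14, limma adjusted p 0.00885), but the ratio was -0.17 with p73 shRNA and -0.67 with ns shRNA, and the call was lost without the intensity trend (limma adjusted p 0.0926). The other 2 probe sets of SRSF1 above the filter fell more, by 1.04 (208863_s_at) and by 0.68 (201742_x_at) on the log2 scale. SRSF11 went the other way: it had 3272 at 100% and 2097 at 40% with p73 shRNA, and 5801 and 5032 with ns shRNA. Its average was 0.42 (SE 0.14, limma adjusted p 0.0107), with ratios of 0.64 and 0.20, and this call too was lost without the intensity trend (limma adjusted p 0.089). Its other 2 probe sets rose by an average of 1.18 (200685_at) and 1.02 (213742_at), with limma adjusted p of 7.85e-07 and 2.57e-07 when tested one by one.

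All 4 CLK kinases had a positive average at 100% confluence, and 2 passed the test. Of all 6759 genes 3456 had a positive average and 20.4% rose. CLK1 had 475 at 100% and 202 at 40% with p73 shRNA, and 585 and 360 with ns shRNA. This was 1.91-fold by the average (log2 0.94, SE 0.20, limma adjusted p 3.96e-05). Among the brightest probe sets of the splicing factors it was the largest change in this comparison. Without the trend the limma adjusted p was 0.00111. CLK3 had 520 and 308 with p73 shRNA, and 473 and 355 with ns shRNA (log2 0.57, SE 0.20, limma adjusted p 0.0157). CLK4 averaged 0.42 (limma adjusted p 0.104). CLK2 averaged 0.14 (limma adjusted p 0.569), with a ratio of 0.44 with p73 shRNA and -0.15 with ns shRNA. Each CLK kinase has a single probe set, and CLK1 and CLK4 are close relatives in sequence.

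Promoter windows are shown for the genes whose calls held without the trend and under both scaling alternatives: CLK1 and CLK3, which rose, and SRSF6, SRSF7 and SNRPC, which fell. TRA2A is the other such gene. The windows are the 250 bases before the first RefSeq start listed for each gene in GRCh38.p14. CLK1 lies at chr2:200864659-200864908 on the minus strand, CLK3 at chr15:74608122-74608371 on the plus strand, SRSF6 at chr20:43457646-43457895 on the plus strand, SRSF7 at chr2:38751495-38751744 on the minus strand and SNRPC at chr6:34757255-34757504 on the plus strand. Capitals mark matches to the 4 motifs on either strand. CLK1, SRSF6 and SRSF7 hold 2 GC boxes each and none of the other motifs. CLK3 holds 2 CCAAT boxes, and SNRPC holds 1 GC box and 2 ETS sites that overlap each other. CLK1, CLK3 and SRSF7 have another listed start. The window there holds 2 GC boxes for CLK1, 3 for SRSF7, and 2 with 1 p53 family decamer for CLK3.
CLK1: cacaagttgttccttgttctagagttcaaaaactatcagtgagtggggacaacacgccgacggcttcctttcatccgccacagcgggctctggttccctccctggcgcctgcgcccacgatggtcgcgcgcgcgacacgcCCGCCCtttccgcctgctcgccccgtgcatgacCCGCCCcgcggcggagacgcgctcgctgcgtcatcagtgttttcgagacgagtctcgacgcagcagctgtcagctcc
CLK3: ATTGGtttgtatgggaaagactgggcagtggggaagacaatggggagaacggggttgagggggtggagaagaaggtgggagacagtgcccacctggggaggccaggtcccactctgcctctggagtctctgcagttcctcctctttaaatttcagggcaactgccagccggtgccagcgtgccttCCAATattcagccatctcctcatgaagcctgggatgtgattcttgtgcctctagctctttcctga
SRSF6: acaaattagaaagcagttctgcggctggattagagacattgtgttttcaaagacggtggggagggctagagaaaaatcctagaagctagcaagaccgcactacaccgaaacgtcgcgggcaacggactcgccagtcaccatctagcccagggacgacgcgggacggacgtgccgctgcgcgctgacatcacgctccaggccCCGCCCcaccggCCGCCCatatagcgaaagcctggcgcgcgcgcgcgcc
SRSF7: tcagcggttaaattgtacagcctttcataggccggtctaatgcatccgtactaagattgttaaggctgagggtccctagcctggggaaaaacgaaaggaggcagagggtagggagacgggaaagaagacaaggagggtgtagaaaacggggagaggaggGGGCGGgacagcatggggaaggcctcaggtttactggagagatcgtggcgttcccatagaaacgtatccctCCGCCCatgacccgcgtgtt
SNRPC: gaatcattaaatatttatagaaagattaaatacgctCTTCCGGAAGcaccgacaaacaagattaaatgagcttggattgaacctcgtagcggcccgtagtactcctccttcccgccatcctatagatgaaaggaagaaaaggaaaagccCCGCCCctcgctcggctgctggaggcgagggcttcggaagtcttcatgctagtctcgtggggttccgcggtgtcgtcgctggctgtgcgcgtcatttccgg

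**Figure D2:**
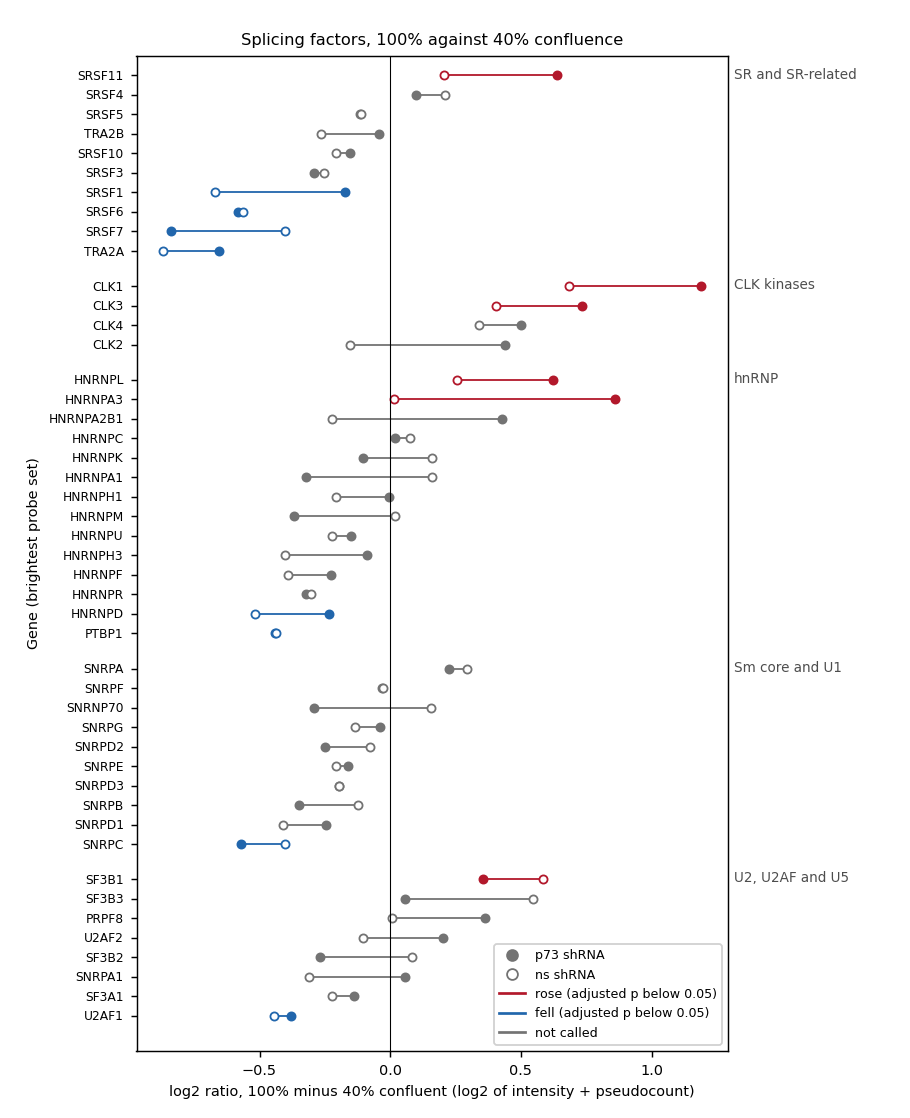
Log2 ratio of 100% to 40% confluence for the 46 splicing factors, filled points with p73 shRNA and open points with ns shRNA, grouped by role and ordered by the average. CLK1 stands highest at 1.19 and 0.68, and TRA2A has the lowest average at -0.66 and -0.87.

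Of the 14 hnRNPs 2 rose and 2 fell with confluence, and none was called without the intensity trend, while 6 (42.9%) had an unadjusted p under 0.05, close to the 44.7% of all genes. PTBP1, which binds pyrimidine tracts and represses exons, had 3338 at 100% and 4540 at 40% with p73 shRNA, and 3424 and 4639 with ns shRNA. Both ratios were -0.44, and the average had an SE of 0.14 (limma adjusted p 0.00729). HNRNPD, also known as AUF1 and a binder of AU-rich RNA, averaged -0.38 (limma adjusted p 0.0211). HNRNPL, which binds CA repeats, had 884 and 569 with p73 shRNA, and 731 and 611 with ns shRNA (average 0.44, limma adjusted p 0.0362), a call lost under either scaling alternative. HNRNPA3 averaged 0.44 (limma adjusted p 0.014), but its ratio was 0.86 with p73 shRNA and 0.01 with ns shRNA, so the call rested on the p73 shRNA array at 40%. Averaged over the 3 probe sets that name it alone, HNRNPA3 was at 0.09 and was not called (limma adjusted p 0.637). The probe sets it shares with another gene, which were not used, all read lower at 100% with either hairpin, against the call. The brightest of them had 3056 at 100% and 3669 at 40% with p73 shRNA, and 3222 and 3729 with ns shRNA. Averaged over all 6 of its probe sets, with 205183_at below the filter, HNRNPD was at 0.23 and was not called (limma adjusted p 0.235). That sign is opposite to the one of its brightest probe set.

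The Sm and U1 proteins were mostly slightly lower at confluence: 9 of 10 had a negative average, 8 were lower with both hairpins and 1, SNRPC, fell. Of all 6759 genes 3303 had a negative average, 2498 were lower with both hairpins and 16.1% fell. The median of the 10 was -0.17, and it was -0.09 after quantile normalization and -0.23 with arrays centred on their medians. The 99th percentile of intensity was higher at 40% (13157 with p73 shRNA, 11420 with ns shRNA) than at 100% (10869 and 10196). The part of this in the ratios was not tested. SNRPC had 2041 at 100% and 3035 at 40% with p73 shRNA, and 1756 and 2327 with ns shRNA (average -0.49, SE 0.15, limma adjusted p 0.00431). SNRPD1 averaged -0.33 (limma adjusted p 0.0548). It was called with arrays centred on their medians, with the filter at the 70th percentile and with its probe sets averaged. Its dimmer probe set, 202691_at, fell by 0.45 when tested one by one (limma adjusted p 0.0279). SNRPA, the U1 protein that binds a loop of U1 RNA, was the exception with an average of 0.26 (limma adjusted p 0.152).

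In the U2, U2AF and U5 group 1 of 8 rose and 1 fell. SF3B1 had 5727 at 100% and 4478 at 40% with p73 shRNA, and 5151 and 3433 with ns shRNA (average 0.47, SE 0.14, limma adjusted p 0.00368). All 4 of its probe sets rose when tested one by one, by 0.46 to 0.67. U2AF1, the subunit that recognises the last bases of the intron, had 2765 and 3603 with p73 shRNA, and 2555 and 3482 with ns shRNA (average -0.41, SE 0.14, limma adjusted p 0.0143). SF3B3 averaged 0.30 (limma adjusted p 0.113). Without the trend neither SF3B1 (limma adjusted p 0.0537) nor U2AF1 (limma adjusted p 0.0833) was called.

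**Figure D3:**
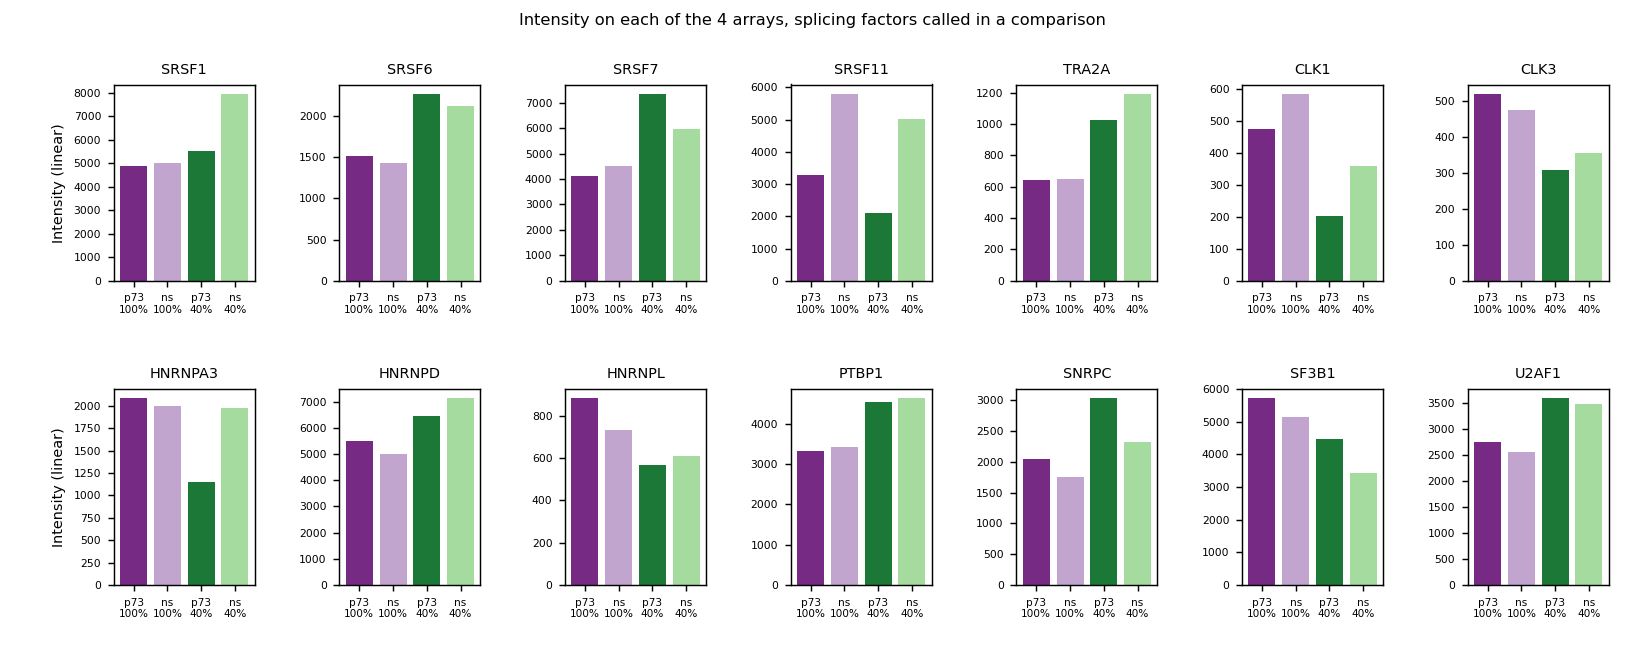
Intensity (linear, bars from 0) of the brightest probe set on each array, for the 14 splicing factors called in either comparison, in the order p73 shRNA at 100%, ns shRNA at 100%, p73 shRNA at 40% and ns shRNA at 40% confluence. SRSF11 is low on both p73 shRNA arrays (3272 and 2097 against 5801 and 5032), while CLK1 is high on both confluent arrays (475 and 585 against 202 and 360).

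In the wider list of splicing genes 29 of 90 fell and 9 rose at confluence, with a median of -0.19. The share called in either direction was 42.2%, against 36.6% of all genes. Without the intensity trend it was 27.8% against 30.6%, so the place of this share relative to the background turned round. The shares by direction did not: 32.2% fell and 10% rose, against 16.1% and 20.4% of all genes. Without the trend 22.2% fell and 5.56% rose, against 12.3% and 18.3%. WDR77, a partner of the methyltransferase that modifies Sm proteins, had 423 at 100% and 1143 at 40% with p73 shRNA, and 390 and 1176 with ns shRNA (average -1.49, limma adjusted p 1.51e-15). HNRNPAB averaged -0.94 (limma adjusted p 1.62e-10). At the other end SRRM2, a scaffold protein of nuclear speckles, averaged 1.07 (limma adjusted p 2.41e-10) and PRPF39, a U1-associated protein, 0.71 (limma adjusted p 0.0123). These 4 kept their calls without the intensity trend.

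Probe sets of the same splicing factor did not always move together with confluence. Of the 104 probe sets 95 lay above the filter, and tested one by one 15 rose and 20 fell, 36.8% of them against 35.3% of all 9952 probe sets (19.6% risen and 15.7% fallen). Of the 27 splicing factors with 2 or more such probe sets, 4 (14.8%) had 1 or more that rose and 1 or more that fell, while this was so for 23 of the 2231 genes of all kinds with 2 or more (1.03%). Among genes with 3 or more, a split made after these values were seen, where the mean number of probe sets was 3.38 for the splicing factors and 3.37 for all, it was 3 of 16 against 16 of 702 (2.28%). No test of this difference was made. The 4 genes are TRA2A, HNRNPD, SRSF7 and HNRNPA3. At gene level HNRNPD and HNRNPA3 were not called without the intensity trend (limma adjusted p 0.118 and 0.112). The median range among probe sets of a gene was 0.33 for the splicing factors and 0.32 for all genes. All probe sets shared a sign in 48.1% and 67.9% of these genes. Opposite changes of at least 0.5 each were found in 1 splicing factor, TRA2A (3.7%), and in 10 of all genes (0.448%).

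For TRA2A the brightest probe set, 204658_at, fell, while 213593_s_at had 363 at 100% and 202 at 40% with p73 shRNA, and 337 and 143 with ns shRNA. This was a rise of 0.99 (SE 0.23, limma adjusted p 0.000217, one by one) beside the fall of 0.76. Both probe sets kept their direction with either hairpin. The mean of all 3 TRA2A probe sets, 1 of them below the filter, averaged 0.30 and was not called.

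For HNRNPD, probe set 213359_at had 564 at 100% and 230 at 40% with p73 shRNA, and 679 and 281 with ns shRNA, a rise of 1.24 (SE 0.20, limma adjusted p 4.28e-08). Probe set 209330_s_at also rose, by 0.46, while the brightest, 221481_x_at, fell by 0.38. For SRSF7, 214141_x_at and 201129_at fell by 0.62 and by 0.60, while 213649_at had 1064 and 745 with p73 shRNA, and 1074 and 867 with ns shRNA (average 0.41, limma adjusted p 0.0399). For HNRNPA3, 211929_at rose by 0.44 and 211932_at fell by 0.44. With p73 shRNA no splicing factor had called probe sets in both directions.

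**Figure D4:**
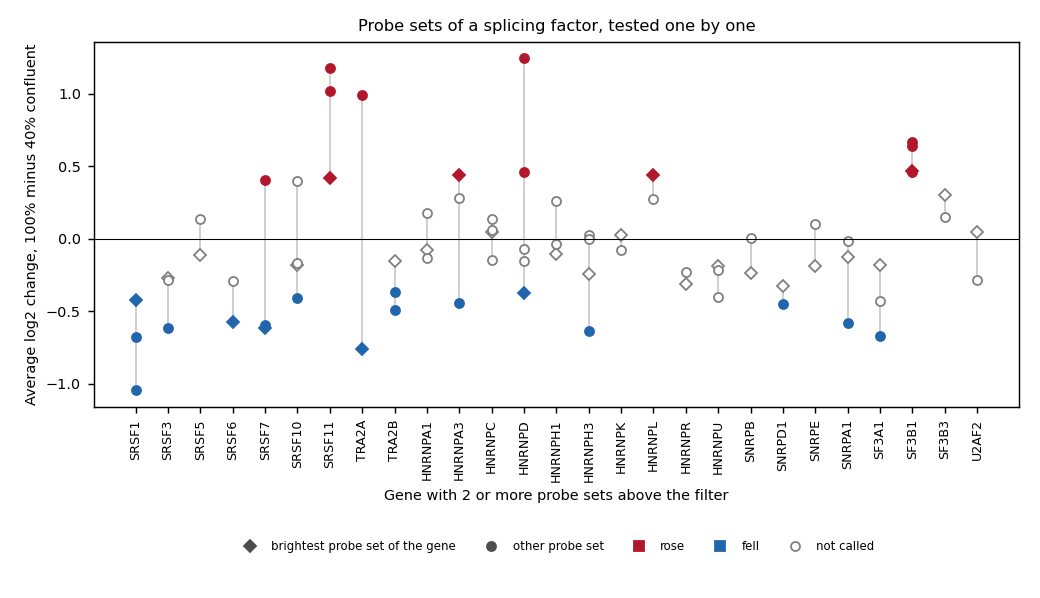
Average log2 change, 100% minus 40% confluent, of each probe set above the filter for the 27 splicing factors with 2 or more, diamonds for the brightest of a gene and filled symbols for those called one by one. TRA2A spans -0.76 to 0.99 and HNRNPD -0.38 to 1.24, whereas the 3 probe sets of SRSF1 all fell and the 4 of SF3B1 all rose.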

How the data were processed

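Total RNA of 4 BJ-TE cultures was biotin-labelled following Affymetrix's standard procedure, as the labels state. The authors deposited 1 linear intensity per probe set and array. Not given in the sources used here: the software that summarised and scaled these. Each array has the same trimmed mean, so the deposited intensities were taken as already scaled. A change shared by most genes cannot be seen after such scaling.

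Control probe sets (62 of 22277) were left out. In the platform annotation 19064 probe sets name 1 gene, 1043 several and 2108 are unlisted, and current symbols were found through Entrez IDs for 19052 of the first. The log2 scale is log2(intensity + 11.6). That pseudocount equals the 20th percentile of the data and understates ratios of dim probe sets. A gene took the brightest probe set that names it alone, and genes whose mean reached the median over probe sets (6.94 on the log2 scale, intensity about 111) were tested. limma 3.58.1 in R 4.3.3 fitted shRNA and confluence additively over the 4 arrays with an intensity trend, two-sided. Prior degrees of freedom were infinite, so each error is the mean spread of genes equally bright. Without the trend they were 15.8. Ratios at 1 stage or with 1 hairpin have no test. The model was tested on simulated data. Figures were drawn with matplotlib 3.10.9.

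The genes, their role groups and the wider list were chosen with earlier results of these data known. Genes named with values are those called, the 3 largest changes per role group and comparison, the CLK kinases, and genes whose probe sets moved by at least 0.5 in opposite directions, with the 2 highest and 2 lowest called genes of the wider list. Alternatives changed the scaling, pseudocount, filter, choice of probe set, trend and factors in the model. Further members of a small count, and the probe sets of HNRNPD, SRSF7, HNRNPA3, SRSF1, SRSF11 and SF3B1, were singled out after their values were seen. Probe sets with the suffix _x_at, and those of HNRNPA1 and HNRNPA3, which have near-identical pseudogenes, can bind transcripts of other genes, so their identity is less certain. Promoters are RefSeq sequences of GRCh38.p14. Their coordinates do not come from the arrays.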

Additional observations from a re-analysis of the deposited data

Results flagged for a closer look

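With 1 array a group, a ratio can have one sign at 100% and the other at 40% confluence, or one sign with each hairpin, and no difference below was tested. Over all genes this was so for 41.5% in the p73 shRNA comparison and 23.8% in the confluence comparison. Of the 25 splicing factors that the naming rule selects, 9 had opposite signs with p73 shRNA. The log2 ratio at 100% minus that at 40% was 0.85 for HNRNPA3 (0.06 at 100% and -0.78 at 40%), 0.59 for CLK2 (0.34 and -0.24), 0.37 for HNRNPL (0.27 and -0.10), 0.33 for CLK3 (0.13 and -0.20) and 0.28 for HNRNPD (0.14 and -0.14). It was -0.492 for SF3B3 (-0.15 and 0.34), -0.485 for HNRNPA1 (-0.05 and 0.43), -0.44 for SRSF7 (-0.13 and 0.30) and -0.35 for SF3B2 (-0.04 and 0.31).

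In the confluence comparison 4 of the 25 had opposite signs. The log2 ratio with p73 shRNA minus that with ns shRNA was 0.59 for CLK2 (0.44 with p73 shRNA and -0.15 with ns shRNA), -0.485 for HNRNPA1 (-0.32 and 0.16), -0.39 for HNRNPM (-0.37 and 0.02) and -0.35 for SF3B2 (-0.27 and 0.08).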

How the results depend on the processing

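The average log2 changes of the named splicing factors were recomputed under 10 alternatives, 496 values in all, of which 7 changed sign. Changing the filter, the trend or the factors in the model, or testing each probe set alone, leaves these averages as they were. Only the scaling, the pseudocount and the averaging of probe sets could turn a sign, the last only for genes with several probe sets. Many of the 496 values therefore could not change sign, and their number does not measure stability. With probe sets of a gene averaged, the confluence change was 0.30 for TRA2A and 0.23 for HNRNPD, and the p73 shRNA change 0.31 for TRA2A, -0.29 for HNRNPA1, 0.00986 for SNRPD1 and -0.10 for SF3B3. With arrays centred on their medians the p73 shRNA change of HNRNPD was 0.00805. The cause was not tested. The number of splicing factors called with p73 shRNA was 0 with no filter and 0 without confluence in the model, and 2 over probe sets tested one by one. The number called with confluence was 7 with no filter, 6 without the intensity trend, 5 without the hairpin in the model and 35 over probe sets, of which 95 were tested. Of all genes, those called with p73 shRNA numbered 105 after quantile normalization, 4 with no filter, 40 with the mean of probe sets, 74 without the trend and 0 without confluence in the model, against 184, and at an unadjusted p under 0.05 there were 922. Those called with confluence numbered 1555 with no filter and 1345 without the hairpin in the model, against 2471. CLK1 was called with confluence in all 9 alternatives that tested it and SRSF6 in all 10. The number of arrays limits every value, and dim probe sets such as the 9 of splicing factors below the filter are not shown to be unchanged.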

Other observations

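SRSF6 has a dimmer probe set, 206108_s_at, that read higher with p73 shRNA at both stages, with 249 (p73 shRNA) and 149 (ns shRNA) at 100% and 319 and 178 at 40% confluence. Its average log2 change was 0.75 and did not pass when probe sets were tested one by one (limma adjusted p 0.0682). The brightest SRSF6 probe set averaged 0.09. For U2AF2, the large subunit of U2AF, 218382_s_at was at 339 and 249 at 100% and at 500 and 254 at 40% (average 0.69, limma adjusted p 0.0524), while the brightest probe set averaged -0.01. Probe set 216977_x_at of SNRPA1, a U2 protein, was the only one of the 95 that rose with p73 shRNA one by one. It had 1258 (p73 shRNA) and 955 (ns shRNA) at 100%, and 2222 and 1224 at 40% (average 0.62, limma adjusted p 0.00734), beside an average of -0.06 for the brightest SNRPA1 probe set. These were picked after their values were seen.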
